A study of Mus musculus with 32 samples.

Results

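Immediate early genes are the genes that neurons switch on within minutes of a strong stimulus without first making new protein. The 10 members described here are Fos, Fosb, Jun, Junb, Egr1, Egr2, Nr4a1, Arc, Dusp1 and Ier2, and they were chosen by gene symbol from a table of 25697 probes that carries 18138 symbols. Each member had 1 probe, so the members make up 10 probes. No measured value entered this rule, although the members were chosen with earlier results of these data known. Of the 10 members, 8 passed the detection filter and were tested, among 7926 genes tested in all.

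Calcium entry through synaptic receptors and channels activates kinases, and these act on transcription factors already bound to the promoters of immediate early genes, such as CREB and SRF. The messengers are short-lived, so their level follows recent activity, and in cortex they are widely read as a mark of it. Fos, Fosb, Jun and Junb encode subunits of AP-1, a dimeric transcription factor. Egr1 and Egr2 encode zinc finger factors and Nr4a1 an orphan nuclear receptor. Arc encodes a synaptic protein that promotes removal of AMPA receptors, and Dusp1 a phosphatase that switches off MAP kinases.

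The samples were frontal cortex (FCtx) from 32 female F1 hybrid mice of the strains C57BL/6J and FVB/NJ, each hybridised to 1 Illumina MouseRef-8 v2.0 array. In 20 ethanol-treated mice a bottle of 20% ethanol was offered beside water during limited sessions in the dark over 20 days, and 12 control mice were not given ethanol. The dissected tissue was a dorsal slice of the most rostral cortex, and it was taken about a day after the last session, so the arrays hold no time point close to drinking. The labels give 1 direction of the cross for all mice whereas the Methods describe both, and neither source gives the age at sacrifice. The 32 arrays lay on 4 chips of 8 positions each, A to H, and positions A, C, E and G are called odd here and B, D, F and H even. Chips 1 and 2 held ethanol-treated mice, chip 4 held controls, and chip 3 held 4 ethanol-treated mice at odd positions and 4 controls at even positions. Treatment and chip therefore cannot be told apart between chips 1 and 2 and chip 4, and treatment and position cannot be told apart on chip 3. Values are probe signals after a variance-stabilising transform and quantile normalisation, on a log2 scale. Between 9480 and 11544 probes were detected per array, and array pairs correlated at r between 0.970 and 0.994 across genes, which are not independent replicates. Before normalisation, the 8 controls of chip 4 had median signals from 146 to 168, below the 172 to 203 of the ethanol-treated mice on chips 1 and 2 without overlap, and chip 3 lay between 166 and 188. Control mouse 66 on chip 4 gave the fewest detected probes and the lowest median signal. Over the 7 of 10 neuron markers tested, summed signals lay between 40022 and 44941 in the ethanol-treated mice and between 38730 and 43172 in the controls, and Snap25, Nefl and Gad2 did not pass the filter.

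Promoter sequence is shown for the AP-1 subunits, of which Fosb, Jun and Junb were called between the groups over all arrays and Fos was not, and for Dusp1, which followed Fos closely from mouse to mouse. Of the 10 members, 7 matched RefSeq promoters of the build GRCm38.p6, and Egr1, Arc and Ier2 did not. Each line gives the 250 bases before the transcription start, 5′ to 3′ on the gene's own strand. These windows are chr12:85473640-85473889 on the plus strand for Fos, and on the minus strand chr7:19310046-19310295 for Fosb, chr4:95052223-95052472 for Jun, chr8:84978749-84978998 for Junb and chr17:26508473-26508722 for Dusp1. Capitals mark matches to the motifs searched.
Fos: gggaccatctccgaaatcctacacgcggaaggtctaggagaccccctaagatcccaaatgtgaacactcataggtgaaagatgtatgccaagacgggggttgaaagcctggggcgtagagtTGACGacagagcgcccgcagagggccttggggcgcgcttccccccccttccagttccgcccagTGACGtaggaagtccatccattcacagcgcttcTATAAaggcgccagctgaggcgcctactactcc
Fosb: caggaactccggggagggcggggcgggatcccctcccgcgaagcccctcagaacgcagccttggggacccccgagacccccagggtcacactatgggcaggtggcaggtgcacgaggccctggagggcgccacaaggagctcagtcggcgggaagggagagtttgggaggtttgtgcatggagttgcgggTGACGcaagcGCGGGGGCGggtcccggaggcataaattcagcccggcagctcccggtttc
Jun: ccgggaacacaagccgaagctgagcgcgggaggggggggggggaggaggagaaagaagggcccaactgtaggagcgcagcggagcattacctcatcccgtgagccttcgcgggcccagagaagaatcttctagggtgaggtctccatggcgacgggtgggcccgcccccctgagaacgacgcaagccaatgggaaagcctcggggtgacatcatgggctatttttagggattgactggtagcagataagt
Junb: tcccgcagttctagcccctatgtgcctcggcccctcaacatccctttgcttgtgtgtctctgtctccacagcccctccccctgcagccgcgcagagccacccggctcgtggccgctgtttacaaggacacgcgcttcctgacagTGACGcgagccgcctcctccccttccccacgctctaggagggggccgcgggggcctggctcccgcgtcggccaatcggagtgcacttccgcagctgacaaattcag
Dusp1: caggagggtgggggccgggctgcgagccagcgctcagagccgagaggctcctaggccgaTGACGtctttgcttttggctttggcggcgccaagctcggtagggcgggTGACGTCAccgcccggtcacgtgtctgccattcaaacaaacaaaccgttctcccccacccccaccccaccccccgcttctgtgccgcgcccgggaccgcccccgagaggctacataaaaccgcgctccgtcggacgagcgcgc
The motifs were the CREB core TGACG, the full CREB site TGACGTCA that contains it, the AP-1 site TGANTCA, the EGR site GCGNGGGCG and the CArG box of SRF, on both strands, and TATAA on the gene's strand. The core TGACG was found in 17.9% of 32536 promoter windows of the same length, the full site in 1.56%, the AP-1 site in 6.73%, the EGR site in 4.74%, the CArG box in 1.48% and TATAA in 15.9%. Dusp1 holds the full CREB site, 143 bases before its start. Fos holds the core at 2 places and TATAA 33 bases before its start, while Fosb and Junb hold the core once each and Fosb an EGR site as well. None of the motifs searched was found in the Jun window. Egr2 has 5 annotated starts, and 3 of its windows, which overlap, hold the same CArG box CCATATATGG with the core on either side of it. Nr4a1 holds the core at 4 places. These matches describe letters in a window and say nothing of binding in these mice.

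Nr4a1 and Ier2 could not be followed. Nr4a1 (probe ILMN_2701881) and Ier2 (probe ILMN_2642705) were detected on 0 of 32 arrays at a detection p below 0.01. The lowest detection p over the 32 arrays was 0.0476 for Nr4a1 and 0.174 for Ier2. In the fit over all probes of the array, their log2 differences between ethanol-treated and control mice were -0.01 (SE 0.03, limma adjusted p = 0.886) for Nr4a1 and 0.02 (SE 0.03, adjusted p = 0.81) for Ier2. These values describe probes at background and not the messengers. The probes of the other 8 members were detected on all 32 arrays.

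The first question was which immediate early genes differed between ethanol-treated and control FCtx over all arrays. Arc, Jun, Junb and Fosb were lower in the ethanol-treated mice, with log2 differences of -0.49, -0.25, -0.24 and -0.21, whereas Egr2, Dusp1, Fos and Egr1 did not pass the threshold. A gene was called at an FDR below 1% by limma, with 20 against 12 arrays and p-values adjusted over all probes tested. By this rule 4 of the 8 tested members were called, all lower, against 7.67% of the 7926 genes called in either direction and 4.74% called lower. The fitted difference was negative for all 8 members, with a median of -0.22, and the median over all tested genes was -0.01. Of the called genes of the whole array, 232 were higher and 376 lower. With arrays scaled to equal medians in place of quantile normalisation, 0 members were called, the median over all genes was 0.06 with 96 genes called higher and 10 lower, and Egr1 (0.0029) and Fos (0.015) turned positive. In bulk tissue, less RNA per cell and fewer cells that express a gene cannot be told apart.

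Among the AP-1 subunits, Jun (probe ILMN_2646625), the usual partner of Fos proteins, ranged from 7.94 through a median of 8.08 to 8.32 in ethanol-treated mice and from 8.10 through 8.35 to 8.53 in controls. No ethanol-treated array exceeded the control median, although the ranges overlapped. Before normalisation the median signal of Jun was 312 in ethanol-treated mice and 307 in controls, on arrays whose overall signal was lowest on chip 4. The normalised difference of Jun was -0.25 (SE 0.04, 0.839-fold, adjusted p = 7.11e-05), and it lay between -0.39 and -0.13 over 14 alternatives. Under 3 of them Jun no longer passed (adjusted p up to 0.649). Junb (probe ILMN_1220034), a subunit that replaces Jun in many dimers, lay between 8.60 and 9.43 with a median of 8.95 in ethanol-treated mice and between 9.02 and 9.54 with a median of 9.19 in controls. The groups overlapped, with 2 of 20 ethanol-treated arrays above the control median. Its difference of -0.24 (SE 0.06, 0.849-fold) had an adjusted p of 0.00753, close to the threshold, and Junb no longer passed it under 10 of 14 alternatives, among them leaving out control mouse 66 (-0.21, adjusted p = 0.0209), with adjusted p-values from 0.0072 to 0.68 over the 14. Fosb (probe ILMN_2778279), whose truncated product accumulates with repeated drug exposure, ranged from 7.47 through 7.63 to 7.97 in ethanol-treated mice and from 7.71 through 7.84 to 8.15 in controls. Here too 2 of 20 ethanol-treated arrays lay above the control median. The difference was -0.21 (SE 0.05, 0.862-fold, adjusted p = 0.00175). The median signal of Fosb was 242, and those of Jun and Egr2 were 311. It was 155 for the undetected probe of Ier2 and 154 for that of Nr4a1, and no background was subtracted in this fit. Over 14 alternatives the difference of Fosb lay between -0.44 and -0.06, and it no longer passed under 4 of them (adjusted p up to 0.891). The single probe is not known from the table to separate the truncated product from the full one.

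Fos (probe ILMN_2750515), the most used activity marker of the set, ranged from 8.47 through 8.95 to 9.36 in ethanol-treated mice and from 8.56 through 9.06 to 9.46 in controls. The ranges nearly coincided, and 7 of 20 ethanol-treated arrays lay above the control median. The difference was -0.07, with a 95% confidence interval from -0.23 to 0.10 and an adjusted p of 0.613.

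Egr1 (probe ILMN_2662926), a factor induced by synaptic plasticity, lay between 13.13 and 13.59 with a median of 13.39 in ethanol-treated mice and between 13.02 and 13.59 with a median of 13.43 in controls. Both groups spanned the same range, with 8 of 20 ethanol-treated arrays above the control median. The difference was -0.05, with an interval from -0.16 to 0.06 and an adjusted p of 0.542. Egr2 (probe ILMN_2623983), a close relative of Egr1, ranged from 7.65 through 8.07 to 8.58 in ethanol-treated mice and from 7.64 through 8.47 to 8.70 in controls. Only 1 of 20 ethanol-treated arrays lay above the control median, yet the control range reached as low as the ethanol-treated one. Its difference of -0.25 (SE 0.09, adjusted p = 0.0431) passed an FDR of 10%, as did 24.6% of all genes, and not of 1%.

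Arc (probe ILMN_2597827) ranged from 9.68 through 10.64 to 11.01 in ethanol-treated mice and from 10.40 through 11.10 to 11.32 in controls. No ethanol-treated array exceeded the control median, and the lowest ethanol-treated arrays lay well under every control. The difference of -0.49 (SE 0.11, 0.712-fold, adjusted p = 0.00224) was the largest of the 8 members. Dusp1 (probe ILMN_2622983) ranged from 10.14 through 10.60 to 10.93 in ethanol-treated mice and from 10.45 through 10.70 to 10.90 in controls. The groups overlapped over the whole control range, and the difference of -0.09 (SE 0.06, adjusted p = 0.314) was not called.

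**Figure D1:**
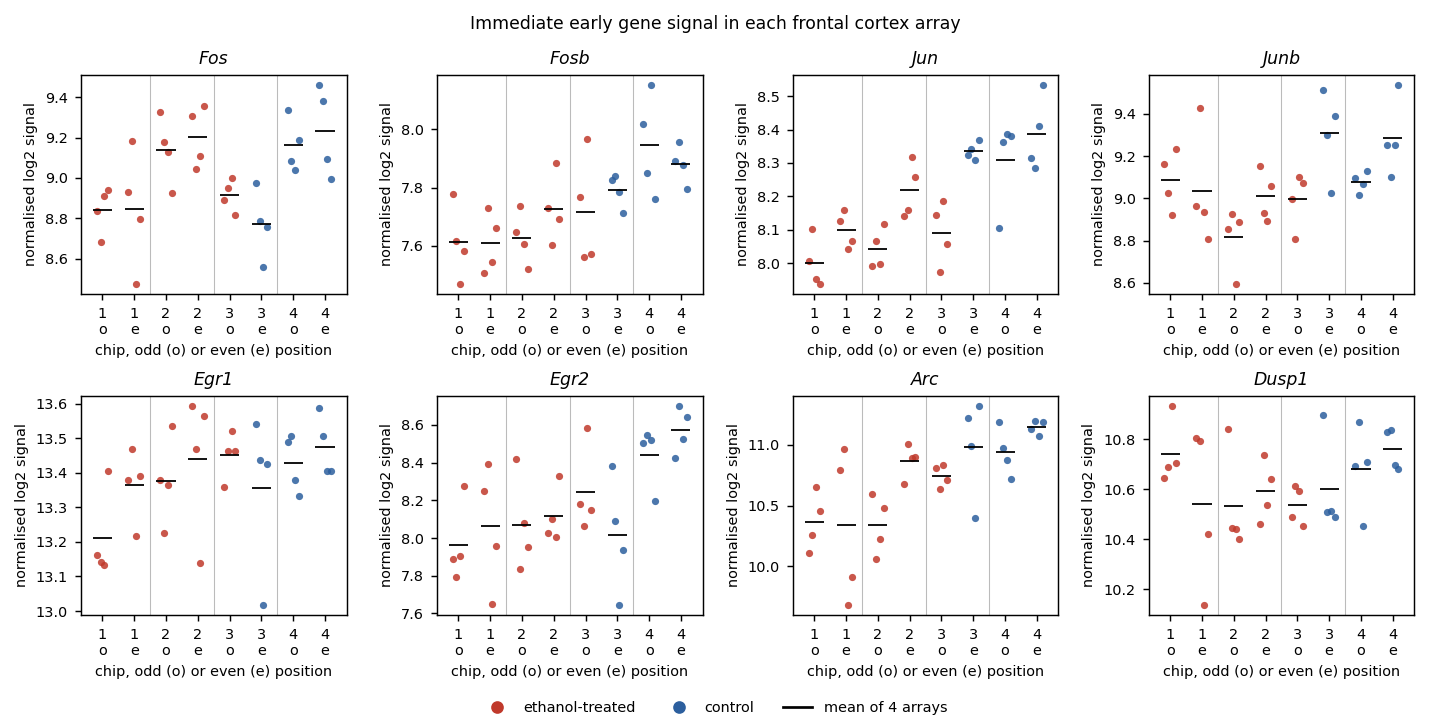
Normalised log2 signal (vertical axis, a separate scale for each gene) of the 8 tested immediate early genes on each of the 32 arrays, by chip and odd or even position (horizontal axis), with ethanol-treated mice in red, controls in blue and the mean of each 4 arrays as a black line. Jun lies higher on average in all 3 sets of controls than in the 5 sets of ethanol-treated mice, while Fos and Egr2 lie lower in the controls of chip 3 than in those of chip 4.

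The second question was whether these differences held from chip to chip. Between the 16 ethanol-treated arrays of chips 1 and 2 and the 8 controls of chip 4, Egr2, Arc, Fosb and Jun were lower in ethanol-treated mice. These 4 of 8 members were called, against 10.6% of all genes in either direction and 6.22% lower. With median scaling 0 members were called, and 364 genes were higher and 9 lower in place of 351 and 493. These arrays are also part of the comparison over all arrays. Egr2 ranged from 7.65 through 8.02 to 8.42 on chips 1 and 2 and from 8.19 through 8.52 to 8.70 on chip 4, with no ethanol-treated array above the control median. Its difference was -0.45 (SE 0.08, adjusted p = 0.000204), compared with -0.25 over all arrays. The differences were -0.56 (SE 0.13, adjusted p = 0.00245) for Arc, -0.27 (SE 0.05, adjusted p = 0.000553) for Fosb and -0.26 (SE 0.05, adjusted p = 0.000631) for Jun. Those of Junb (-0.20, adjusted p = 0.0556) and Fos (-0.19, adjusted p = 0.115) were not called. At odd and at even positions taken apart, each of the 8 members was lower on chips 1 and 2 than on chip 4. The called members gave -0.42 and -0.48 for Egr2, -0.58 and -0.54 for Arc, -0.33 and -0.21 for Fosb and -0.29 and -0.23 for Jun. The members not called lay between -0.27 and -0.04. These are parts of the same arrays by which the members were called, so the split is no further test of them.

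On chip 3, 4 ethanol-treated and 4 control arrays lay side by side. There 0 of 8 members were called by limma at an FDR below 1%, against 2.74% of all genes. Of 200 probes given a log2 change of 0.25, limma recovered 153 over all arrays at an FDR below 1%. On chip 3 it recovered 0 of 200 below 1% and 0 below 10%. At a change of 0.5 it recovered 130 of 200 on chip 3 below 1%. The lack of calls at 1% on chip 3 therefore does not show that differences near 0.25 were absent. At an FDR below 10%, 2 members were called, Jun and Junb, both lower in ethanol-treated mice, against 15.6% of all genes in either direction and 7.72% lower. Jun measured 8.15, 7.97, 8.19 and 8.06 in ethanol-treated mice 46, 47, 49 and 50 and 8.32, 8.34, 8.31 and 8.37 in control mice 52, 54, 55 and 56. All 4 controls lay above all 4 ethanol-treated mice, and Jun was the only one of the 8 members whose groups did not overlap on this chip. The share of all genes that separated in this way was not counted. On this chip 2098 of 7926 genes had an unadjusted p below 0.05 by limma. The difference of Jun was -0.24 (SE 0.07, adjusted p = 0.0387), nearly the same as over all arrays, which include those of chip 3. Junb measured 8.999, 8.81, 9.10 and 9.07 in the ethanol-treated mice and 9.51, 9.30, 9.03 and 9.39 in the controls. Control mouse 55 lay within the ethanol-treated range, and the other 3 controls above it, for a difference of -0.31 (SE 0.10, adjusted p = 0.0543).

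Egr2, Fos and Egr1 had fitted differences of the opposite sign on chip 3, none of them called. Egr2 measured 8.18, 8.07, 8.58 and 8.15 in ethanol-treated mice 46, 47, 49 and 50 and 8.38, 8.09, 7.64 and 7.93 in control mice 52, 54, 55 and 56. All 4 ethanol-treated arrays lay above the control median of this chip, and the groups overlapped. The difference was 0.23 (SE 0.13, adjusted p = 0.286). Fos measured 8.89, 8.95, 9.001 and 8.82 in the ethanol-treated mice and 8.97, 8.79, 8.56 and 8.76 in the controls, so that only control mouse 52 reached the ethanol-treated values. Its difference was 0.14 (SE 0.08, adjusted p = 0.293).

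Arc measured 10.81, 10.64, 10.83 and 10.71 in the ethanol-treated mice of chip 3 and 11.22, 10.99, 10.40 and 11.32 in the controls. Of these controls 3 lay above all ethanol-treated mice and mouse 55 below all of them. The difference was -0.24 (SE 0.14, adjusted p = 0.307), less than the -0.49 over all arrays. Over 15 alternatives, among them leaving out each array of chip 3, it lay between -0.43 and -0.12 (adjusted p from 0.0153 to 0.626). Over the same alternatives the chip 3 difference of Egr2 lay between 0.11 and 0.39 and that of Fos between 0.075 and 0.21. Control mouse 55 was the lowest array of chip 3 for each of Fos, Egr1, Egr2 and Arc. The remaining differences on chip 3 were 0.09 for Egr1, -0.07 for Fosb and -0.06 for Dusp1, with adjusted p-values from 0.575 to 0.695. A fit over all arrays with chip as a fixed block takes its treatment difference from chip 3 and called 0 members. With chip as a random block Jun alone was called (-0.25, adjusted p = 0.00485), with Arc at -0.44 (adjusted p = 0.0527).

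The difference on chip 3 was then set against that between the other chips at the same positions, that is odd positions of chips 1 and 2 against even positions of chip 4, a comparison chosen after these values were seen. For Egr2 the 2 differences were 0.23 and -0.56, and they differed by 0.79, with a 95% confidence interval from 0.39 to 1.18 (SE 0.19, adjusted p = 0.0232). At an FDR of 10% this was the 1 member called, against 6.47% of all genes, and at 1% 0 members and 0.404% of all genes were called. For Arc they differed by 0.55 (interval 0.04 to 1.06, adjusted p = 0.226), for Fos by 0.39 (interval 0.08 to 0.70, adjusted p = 0.161) and for Egr1 by 0.28 (interval 0.02 to 0.54, adjusted p = 0.238). The differences of Jun, at -0.24 and -0.36, differed by 0.12, with an interval from -0.07 to 0.31. Those of Junb, at -0.31 and -0.34, differed by 0.02, with an interval from -0.27 to 0.32.

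Samples of 1 treatment also differed between chips. The controls of chip 3 were compared with those at even positions of chip 4, 4 against 4. At an FDR below 1%, 0 members and 0.479% of all genes were called. Of 200 probes given a log2 change of 0.25, limma recovered 0 here below 1% and 1 below 10%. The lack of calls at 1% therefore does not show that differences of this size were absent. At an FDR below 10%, Egr2 and Fos were lower in the controls of chip 3, 2 of 8 members against 9.5% of all genes in either direction and 4.58% lower. Egr2 measured 8.43, 8.70, 8.53 and 8.64 in control mice 63, 64, 65 and 66 of chip 4, all above the 4 controls of chip 3. The difference was -0.56 (SE 0.12, adjusted p = 0.0205). Fos measured 9.46, 9.38, 9.09 and 8.99 in the same chip 4 mice, also without overlap, with a difference of -0.46 (SE 0.11, adjusted p = 0.0294). With median scaling, which moved the median of all genes to 0.18 here, these differences were -0.36 and -0.24, with adjusted p-values of 0.495 and 0.656. Jun differed by -0.05 and Junb by 0.02 between the same controls, with intervals from -0.21 to 0.11 and from -0.21 to 0.25. The share of all genes without overlap between these sets of controls was not counted, and 1714 genes had an unadjusted p below 0.05 by limma.

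Between ethanol-treated mice of chip 2 and chip 1, 8 against 8, a comparison added after the values were seen, 0 members and 0% of all genes were called by limma at an FDR below 1%, with 1164 genes at an unadjusted p below 0.05. Fos ranged from 8.92 through 9.15 to 9.36 on chip 2 and from 8.47 through 8.87 to 9.18 on chip 1. The lower arrays of chip 2 overlapped the higher arrays of chip 1. The difference of 0.33 (SE 0.08, interval 0.16 to 0.50, adjusted p = 0.0698) passed an FDR of 10%, as did 1.6% of all genes in either direction and 0.618% higher. With median scaling it was 0.45 (adjusted p = 0.00348), the median of all genes moved to 0.11, and 163 genes (2.06%) were called, all higher. No other member passed, and the remaining differences lay between -0.15 for Junb and 0.25 for Arc. Of 12 tested clock genes, which cycle through the day, 4 passed the same threshold in this comparison, Nr1d2 at -0.33, Ciart at -0.34 and Cry2 at -0.27 being lower on chip 2 and Per2 at 0.31 higher. The part of these genes in the difference of Fos was not tested.

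Between ethanol-treated mice of chip 3 and those at odd positions of chips 1 and 2, 4 against 8, limma called 0 members and 0% of genes at an FDR below 1% and 13 genes (0.164%) at 10%, with 778 genes at an unadjusted p below 0.05. Arc had the largest difference, 0.39 (SE 0.10, adjusted p = 0.188), with all 4 arrays of chip 3 above the median of the others.

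**Figure D2:**
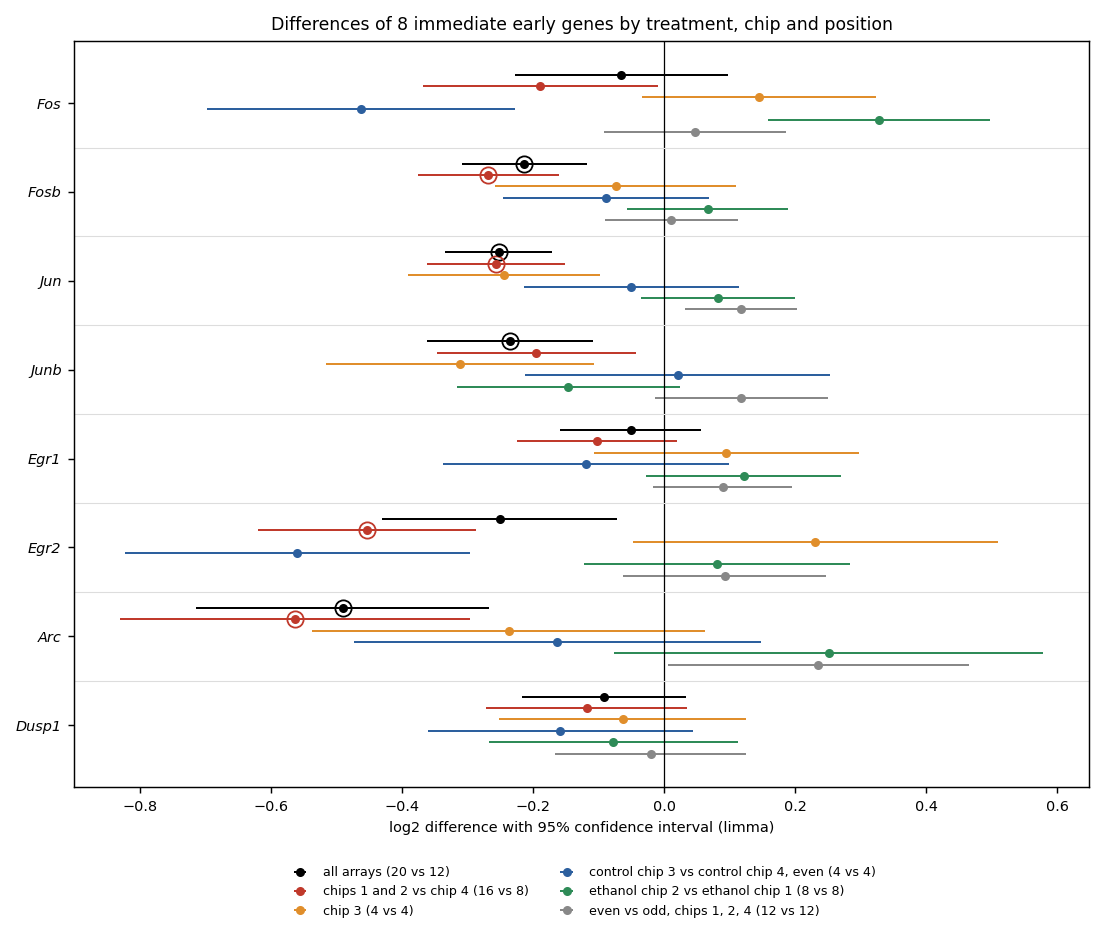
Log2 differences (horizontal axis) of the 8 tested immediate early genes with 95% confidence intervals from limma, in 6 comparisons by treatment, chip or position, with numbers of arrays in brackets and a ring where the gene was called at an FDR below 1%. Jun lies near -0.25 in all 3 comparisons of treatment, while Fos and Egr2 lie below 0 over all arrays and above 0 on chip 3 and lie furthest below 0 between the controls of chips 3 and 4.

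Position was examined within chips 1, 2 and 4, each of which held 1 treatment. Comparing 12 even with 12 odd positions with chip in the fit, 0 of 8 members were called, against 2.71% of all genes. The fitted difference was positive for 7 of 8 members, with a median of 0.09 and a median of 0.00 over all genes. Jun was higher at even positions by 0.12 (SE 0.04, adjusted p = 0.0646), which passed an FDR of 10% as 19.7% of all genes did in either direction and 8.45% in this one. Arc differed by 0.24 (SE 0.11, adjusted p = 0.165) and Junb by 0.12 (SE 0.06, adjusted p = 0.236). Even positions held the controls of chip 3, so these position differences run the same way as the chip 3 differences of Jun, Junb and Arc. They run the opposite way for Egr1, Egr2 and Fos, which differed by 0.09, 0.09 and 0.05 between even and odd positions and by 0.09, 0.23 and 0.14 with ethanol on chip 3, none of them called. In the test of whether the position difference itself changed from chips 1 and 2 to chip 4, limma called 0 members and 0% of genes, with 418 genes at an unadjusted p below 0.05. The intervals of that change were wide, from -0.45 to 0.54 for Arc and from -0.13 to 0.24 for Jun. With chip and odd or even position together in the fit over all arrays, no member was called, and the differences were -0.13 for Jun, -0.20 for Junb and 0.00 for Arc.

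Cell type markers were compared in the same arrays. Over all arrays, the excitatory neuron marker Slc17a7, the only one called of 7 neuron markers tested, was lower in ethanol-treated mice by 0.24 (adjusted p = 0.00521). The median over the 7 was 0.06, and Gad1 (0.29, adjusted p = 0.0146) and Rbfox3 (0.20, adjusted p = 0.0177) were higher at an FDR of 10%. The astrocyte marker Aqp4, the only one called of 8 tested, was higher by 0.57 (adjusted p = 0.000801). The part of these markers in the differences of the members was not tested. Of 10 olfactory bulb markers, 5 passed the detection filter and Eomes, Tbx21, Shisa3, Uncx and Pbx3 did not. Their summed signal lay between 4568 and 5419 in the ethanol-treated mice of chip 3 and between 2694 and 3923 in its controls, without overlap, although the dissection excluded the olfactory bulb. Among the controls of chip 4 it lay between 4420 and 6217 at odd positions and between 2198 and 4002 at even positions, also without overlap, and the median of these markers between even and odd positions of chips 1, 2 and 4 was -0.26. Over all arrays the ranges were 2466 to 8394 in ethanol-treated and 2198 to 6217 in control mice. The 9 tested oligodendrocyte markers of 10, which did not include Ermn, had a median difference of -0.35 on chip 3, with summed signals from 21519 to 25461 in ethanol-treated mice and from 23746 to 37135 in controls. The summed markers of neurons (42586 to 43895 against 38730 to 41832), of astrocytes without Gfap (26654 to 29033 against 23371 to 25339) and of endothelium (7498 to 7614 against 6670 to 6894) did not overlap between ethanol-treated mice, given first, and controls of chip 3. Of these 3 lists Gad1 (0.55), Rbfox3 (0.36), Slc17a7 (-0.43), Aqp4 (0.60) and Cldn5 (0.46) were called there, as were Cdhr1 (1.55) and Doc2g (0.89) of the olfactory bulb list and Cnp (-0.57) of the oligodendrocyte list. On chip 3 treatment and position cannot be told apart. The part of tissue composition and position in the chip 3 differences of Jun and Junb was not tested.

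The members differed in how much they varied among mice of 1 group. Arc had an SD within groups of 0.34, above that of 99.4% of all tested genes, and Egr2 (0.27) and Fos (0.24) lay above 97.7% and 96.0%. Junb (0.18) and Dusp1 (0.18) lay above 84.1% and 83.1%. Egr1 (0.15) and Fosb (0.13) were near the median SD of 0.14, and Jun (0.10) lay above that of only 9.92% of genes. Once the mean of each chip and odd or even position was removed, the SD of Fos fell to 0.18, by a factor of 1.35, the most of any member, whereas that of Dusp1 stayed at 0.18. The smallest of the called differences over all arrays, that of Fosb, was thus larger than the SD between mice of a group, and so were those of Jun, Junb and Arc.

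Removing these means also allowed the members to be compared from mouse to mouse. Deviations of the 32 arrays from the means of their 8 sets of 4 were correlated for all 28 pairs of members, with two-sided permutation tests of 100000 resamples within sets and Benjamini-Hochberg adjustment over the 28 pairs. The correlation was positive for 22 pairs, with a median r of 0.33, and 9 pairs passed an adjusted p of 0.05 by Pearson's r. Egr2 and Arc were the only pair that passed by both coefficients, with r = 0.71 (p = 0.00102, adjusted 0.0125) and rho = 0.66 (p = 0.00172, adjusted 0.0482). Without the 2 arrays farthest from the median of Egr2, r was 0.70, and it was 0.72 within ethanol-treated and 0.70 within control mice. The other 8 pairs were also formed by Fos, Egr1, Egr2, Arc and Dusp1.

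Fos and Dusp1 deviated together at r = 0.66 (p = 0.00151, adjusted 0.0125) and rho = 0.57 (p = 0.00392, adjusted 0.0513), and at r = 0.51 without the 2 arrays farthest out for Fos. Fos and Egr2 gave r = 0.61 (p = 0.00178, adjusted 0.0125) and rho = 0.50 (p = 0.0122, adjusted 0.0569), with r = 0.48 without 2 arrays. Egr1 and Egr2 gave r = 0.61 (p = 0.00172, adjusted 0.0125) and rho = 0.52 (p = 0.00635, adjusted 0.0513), with r = 0.57 without 2 arrays. Arc and Dusp1 gave r = 0.69 (p = 0.00893, adjusted 0.0357) and rho = 0.60 (p = 0.00916, adjusted 0.0513), with r = 0.62 without 2 arrays. The 4 others were Egr2 with Dusp1 (r = 0.63), Fos with Arc (0.57), Fos with Egr1 (0.52) and Egr1 with Arc (0.50), with adjusted permutation p-values from 0.0218 to 0.0404 for r and from 0.0513 to 0.135 for rho. For Fos and Arc r was 0.34 without 2 arrays, so this relation rests in part on them. The lowest values of Arc (9.68), Dusp1 (10.14) and Fos (8.47) over all arrays lay among the ethanol-treated mice at even positions of chip 1. The highest summed markers of oligodendrocytes (45117) and of striatum (4237) lay in the same set. The part of tissue composition in these correlations was not tested. Within each treatment r stayed positive for all of these pairs, but its size differed. In ethanol-treated and control mice it was 0.86 and 0.28 for Arc and Dusp1, 0.76 and 0.34 for Fos and Egr2 and 0.31 and 0.86 for Egr1 and Arc. These differences between treatments were not tested. Fos, Egr1, Egr2, Arc and Dusp1 thus varied jointly among mice of 1 chip and treatment, to unlike degrees by treatment. Of them only Arc was called between treatments over all arrays at an FDR below 1%.

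Jun and Fosb stood apart from this group. The mean r of Jun with the other 7 members was 0.00 and that of Fosb 0.09. It was 0.49 for Egr2, 0.43 for Arc, 0.38 for Fos, 0.34 for Junb, 0.32 for Dusp1 and 0.30 for Egr1. Junb gave r = 0.48 with Egr2 and 0.46 with each of Egr1 and Arc (adjusted permutation p from 0.0697 to 0.166), and no pair of Junb passed. Jun and Fos had r = -0.31 (p = 0.0982, adjusted 0.196) and rho = -0.36 (p = 0.0683, adjusted 0.174), which did not pass, and r = -0.53 without 2 arrays. Fosb and Jun gave r = 0.16 (p = 0.513, adjusted 0.653) and rho = 0.14 (p = 0.52, adjusted 0.633), with r = -0.0065 without 2 arrays. Before the means were removed, the same pair had r = 0.62.

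**Figure D3:**
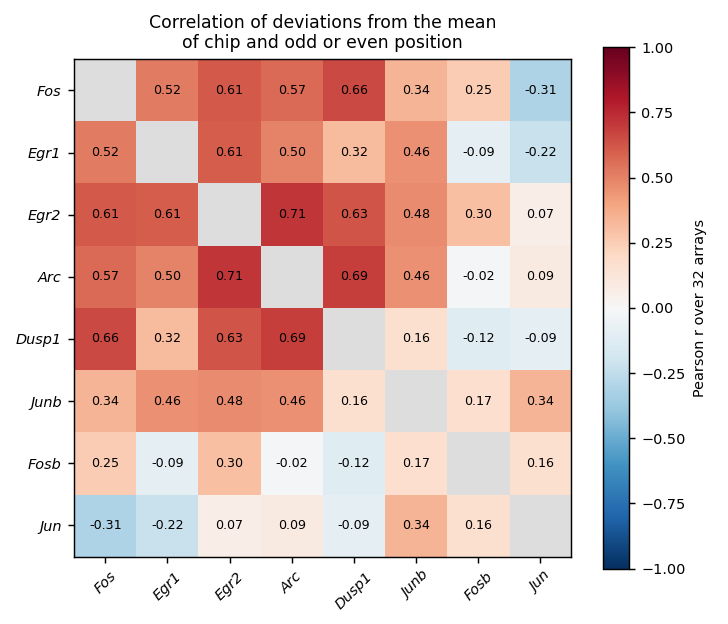
Pearson's r between the 8 tested immediate early genes over 32 arrays, after the mean of each chip and odd or even position was subtracted, from blue (-1) through white (0) to red (1). Between Fos, Egr1, Egr2, Arc and Dusp1 r lies between 0.32 and 0.71. Junb has r between 0.34 and 0.48 with Fos, Egr1, Egr2 and Arc and 0.16 with Dusp1. The values of Fosb and Jun lie between -0.31 and 0.34.

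The genes most like the 8 members from mouse to mouse were found by the mean r with all 8 over the same 32 arrays. The 8 highest of 7918 other genes were Efcab2 (0.45), Xab1 (0.40), 6430411K18Rik (0.36), Egr4 (0.36), Mfap3 (0.35), Prkd2 (0.35), Gm527 (0.35) and 0610031J06Rik (0.35), while the median over these genes was 0.00. Egr4, the only one of them in a list of activity genes, encodes a further EGR factor, and its r was 0.58 with Arc, 0.57 with Egr1, 0.56 with Fos and -0.01 with Fosb. These values carry no test, and the arrays share their hybridisation.

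Other genes of the pathway were taken from 3 lists. The first held 38 further rapid genes, of which 34 were on the array and 19 were tested, with a median difference of -0.08 over all arrays. Of these, 3 were lower and 1 was higher, against 4.74% of all genes lower and 2.93% higher. Per1, a clock gene also induced by CREB, was lower by 0.27 (SE 0.06, adjusted p = 0.0038), Gadd45b, which is involved in DNA demethylation, by 0.24 (SE 0.05, adjusted p = 0.00204) and Klf2, a Krüppel-like factor, by 0.24 (SE 0.05, adjusted p = 0.00263). Ier5l was higher by 0.28 (SE 0.07, adjusted p = 0.0059). Npas4, which is induced selectively by neuronal activity, differed by -0.08 (adjusted p = 0.356) and Egr4 by -0.11 (adjusted p = 0.298). Per1 at -0.41 (adjusted p = 0.00376) and Ier5l at 0.61 (adjusted p = 0.00119) also passed on chip 3, where Sgk1, a kinase gene induced by glucocorticoids, was lower by 0.54 (adjusted p = 0.00278). Gadd45b differed there by -0.04 (adjusted p = 0.787) and Klf2 by 0.04 (adjusted p = 0.798). With normexp background correction, 0 genes were called on chip 3.

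The second list held 27 genes that follow activity more slowly, of which 19 were tested, with a median of 0.03. Over all arrays 4 were lower and none higher, against the same shares of all genes. Median scaling left 10 genes of the whole array called lower, and chip as a fixed block 4. Vgf, which encodes a precursor of neuropeptides, was lower by 0.54 (SE 0.08, adjusted p = 4.75e-05), and Nptx1, Nptx2 and Nrn1, which encode secreted or surface proteins of synapses, by 0.24, 0.20 and 0.20, with adjusted p-values from 0.00258 to 0.004. On chip 3 Vgf had a difference of -0.41 (adjusted p = 0.0406) and was not called. Bdnf, the neurotrophin gene, differed by -0.01 over all arrays (adjusted p = 0.962) and was higher in ethanol-treated mice by 0.45 on chip 3 (adjusted p = 0.0095), the only gene of this list called there. The third list held 28 genes of the kinases and factors upstream, of which 17 were tested. Over all arrays 1 was called higher and 1 lower, against 2.93% of all genes higher and 4.74% lower. Map2k2, a kinase gene, was higher by 0.27 (adjusted p = 0.000253) and Crtc1, a coactivator of CREB, lower by 0.23 (adjusted p = 0.00735), with a list median of 0.00. Between chips 1 and 2 and chip 4, 3 of the 17 upstream genes were higher and 1 lower, against 4.43% of all genes higher and 6.22% lower. Srf, whose product binds the CArG box, was lower in ethanol-treated mice by 0.31 (adjusted p = 0.000368), whereas it differed by -0.15 over all arrays (adjusted p = 0.0881) and by 0.26 on chip 3 (adjusted p = 0.0627). Map2k2 was again higher by 0.27 (adjusted p = 0.00139), and Ppp3ca, a subunit of the phosphatase calcineurin, was higher by 0.27 (adjusted p = 0.00697).

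The mean r with the 8 members had a median of 0.13 over the 19 rapid genes, 0.08 over the 19 slower genes and 0.04 over the 17 upstream genes. Among the rapid genes Egr4 (0.36) was followed by Dusp6 (0.27), a phosphatase gene, and Npas4 (0.23), and Klf2 was lowest at -0.06. Plk3 (0.29) was highest among the slower genes. Klf2 and Per1 (-0.03), both lower in ethanol-treated mice over all arrays, had a mean r near 0 with the members from mouse to mouse.

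**Figure D4:**
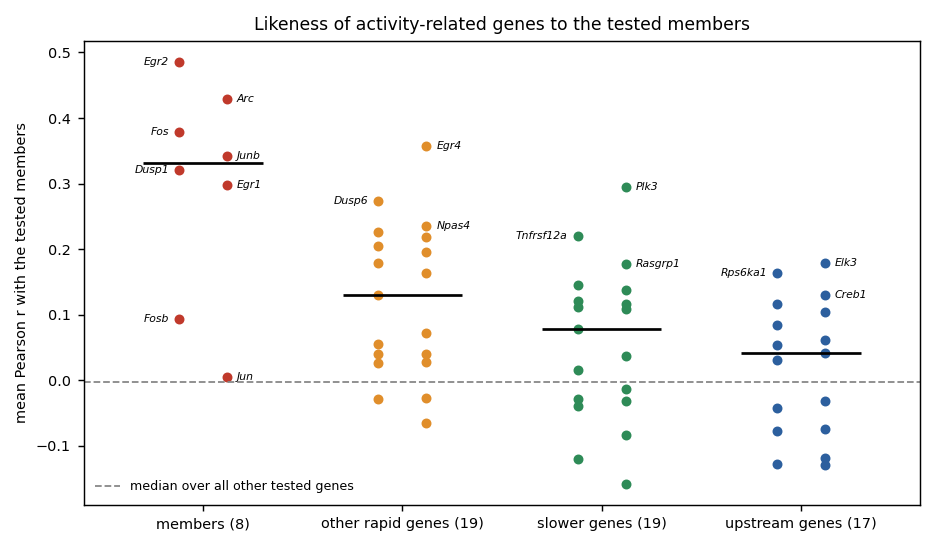
Mean Pearson's r (vertical axis) of each gene with the tested immediate early genes over 32 arrays, after the mean of each chip and odd or even position was subtracted, for the 8 members (each with the other 7) and 3 lists of activity-related genes, with list medians as black lines and the median of all other tested genes dashed. The list medians are 0.13 for rapid, 0.08 for slower and 0.04 for upstream genes, and Jun and Fosb are the lowest members.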

How the data were processed

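Signals, detection p-values and numbers and standard errors of beads of 32 arrays come from the non-normalised bead summary that the authors deposited. The deposited intensity is the mean signal of the beads of a probe on a linear scale. The detection p-value deposited by the authors compares each probe with negative control beads. The other deposited values are bead counts and bead standard errors. All columns were matched to mice by their labels. The authors' own normalised values were made with lumi and analysed with limma, in versions not given in the sources used here.

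Since lumi was not used here, its variance-stabilising transform was rebuilt from bead standard errors in R 4.3.3 with the data.table package (1.17.8) and tested on simulated data, then followed by quantile normalisation. Probes with a detection p below 0.01 on at least 24 of 32 arrays were kept, 10187 of 25697. Groups were compared with limma 3.58.1 without covariates (statmod 1.5.0 for blocks), Benjamini-Hochberg adjusted over these probes, and each gene is given by its brightest tested probe. Arrays are the replicates, 1 per mouse, and their number limits the precision. Python 3.11.15 served for correlations (numpy 2.4.6 and scipy 1.17.1), promoter matches (pandas 2.3.3) and plots (matplotlib 3.10.9).

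The members, gene lists and tests were chosen with earlier results of these data known. Named are all members, up to 4 called genes of each list with the largest change, and the 8 genes most like the members. A gene that this rule covers is not reported here. Values had been seen before Npas4, Bdnf, Dusp6, Plk3, the difference of Egr4 and the clock genes were picked. As alternatives served plain log2 signals, normexp correction (offset 16), scaling to equal medians, the full set of probes or only those detected on every array, each gene's lowest p, an FDR of 10%, chip (fixed or random) and position as covariates, array weights and leaving out arrays.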

Additional observations from a re-analysis of the deposited data

Results flagged for a closer look

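For each of the 8 tested members, the arrays of each group on each chip were tested for 1 array far from the rest. Of these 40 tests, which share arrays, 3 stood out, where chance gives about 1 in 20. Dusp1 measured 10.90 in control mouse 52 on chip 3, where the next of 4 controls measured 10.51. Dusp1 measured 10.45 in control mouse 60 on chip 4, and the next of 8 controls 10.68. Junb measured 9.54 in control mouse 66 on chip 4, and the next of 8 controls 9.25.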

How the results depend on the processing

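Over all arrays, 4 members were called. This fell to 0 with median scaling, with chip as a fixed block and with chip and odd or even position, and to 1 (Jun) with chip as a random block. Median scaling moved the median of all genes from -0.01 to 0.06 over all arrays (96 genes higher and 10 lower, against 232 and 376), from -0.02 to 0.10 between chips 1 and 2 and chip 4 (364 and 9, against 351 and 493), from -0.01 to 0.18 between the 2 sets of controls, from 0.00 to 0.11 between chips 2 and 1 and from 0.01 to 0.13 for the change of position difference. Junb alone was no longer called with normexp (-0.29), all probes (-0.24), odd or even position (-0.20), position A to H (-0.20), array weights (-0.21) or without control mouse 66 (-0.21).

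Signs turned over all arrays for Egr1 and Fos with median scaling (0.0029 and 0.015), for Egr1, Egr2 and Fos with chip as a fixed block (0.095, 0.23 and 0.14) and with chip and position (0.18, 0.32 and 0.19). Median scaling also left 0 members called between chips 1 and 2 and chip 4, with Dusp1 at 0.026, and gave 0.083 for Arc, 0.092 for Dusp1, 0.086 for Egr1, 0.028 for Fosb and 0.16 for Jun between the 2 sets of controls. Between chips 2 and 1 it called 1 member, Fos (0.45), with Dusp1 at 0.078, and 163 genes, all higher, in place of 0. At an FDR of 10% the members called were 2 on chip 3, 1 by position, 2 between the sets of controls and 1 between chips 2 and 1.

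On chip 3 without single arrays, Dusp1 lay between -0.10 and 0.034 (without control mouse 52) and Egr1 between -0.018 (without control mouse 55) and 0.16. Between the sets of controls, leaving out single arrays called between 0 and 1 members, Egr2 (-0.68) without control mouse 52 and Fos (-0.54) without control mouse 66. Junb lay there between -0.047 (without control mouse 52) and 0.11, turning negative also without 56 (-0.0073) and 64 (-0.041), and Arc between -0.28 and 0.032 (without 55). The cause of these changes was not tested. Over all genes, chip 3 gave 217 calls, 0 with normexp and between 42 and 245 without 1 array, the sets of controls 38 and between 8 and 85, and position 215, or 0 with median scaling. Over all arrays, 608 genes were called, compared with 15 with chip as a fixed block, 36 with chip as a random block and 2 with chip and position. No paired analysis was possible because the mouse numbers of the groups do not overlap.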
